A study of Mus musculus with 6 samples.

Results

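The epithelial lining of the mouse uterus is described here through 10 marker genes, namely Epcam, Cdh1, Krt7, Krt8, Krt18, Krt19, Cldn3, Cldn4, Muc1 and Foxa2. They were found by gene symbol among the 54232 genes of the deposited count table, and all 10 had a count in at least 1 library. RNA-seq measured transcripts in cultured stromal cells from uteri on D4, the day the uterus accepts a blastocyst, in WT and in Pbrm1 cKO (conditional knockout) mice, to find genes that differ when this SWI/SNF chromatin remodeling subunit is deleted. Each group held 3 samples from females aged 8 to 12 weeks, and each preparation pooled between 5 and 10 uterine horns. The controls are WT by their labels and floxed mice without Cre (Pbrm1 fl/fl) by the methods of the study. The Pbrm1 cKO mice carry the same floxed alleles with PR-IRES-cre, a Cre expressed from the progesterone receptor gene, which is active in every uterine cell that expresses the receptor, epithelium included, from the neonate on. The labels describe both pseudopregnancy and pregnancy on day 4. Tissue was digested with dispase and pancreatin and then with collagenase, filtered and plated. The medium was changed after 4 hours, and RNA was taken 2 hours later. The marker transcripts are thus those of a stromal preparation, and bulk libraries do not assign them to a cell type.

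Uterine epithelium is a simple columnar sheet that lines the lumen and extends into glands. Its cells are held together by E-cadherin (Cdh1), Epcam and claudins (Cldn3 and Cldn4, which seal tight junctions), and their cytoskeleton is built from simple keratins, in which a type II keratin (Krt7 or Krt8) pairs with a type I keratin (Krt18 or Krt19). Muc1 is the membrane mucin of the apical surface, and Foxa2 is the transcription factor of the glands. Stromal fibroblasts express vimentin and little of these genes. In a bulk stromal library, fewer epithelial cells, less epithelial RNA per cell and transcripts from other cells of the preparation cannot be told apart.

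Promoter windows were read for 8 of the 10 markers from RefSeq (build GRCm38.p6, from 250 bases before to 50 bases after each annotated start, 300 bases in all), and Krt19 and Cdh1 were not among them. The sequence CACCTG or its reverse complement CAGGTG, the E-box that the repressors Zeb1, Zeb2 and Snai1 recognize, was found on either strand in 7 of their 10 windows, against 20.2% of 32851 promoter windows of the same length in the mouse. Each of the 7 belonged to a different marker, and the other 3 were all windows of Foxa2. The GC box GGGCGG was found in 8 of the 10 windows against 35.7% of all windows, TATAAA in 3 against 13.6%, and the AP-1 sequence TGANTCA in 1 against 7.81%, and no match overlapped a match of another motif. A match describes the letters of the window and does not show that a factor binds there. The windows of 4 markers are given to show the keratin pair Krt8 and Krt18, whose fold changes had opposite signs, and the markers Epcam and Cldn4, whose windows each hold the E-box at 2 places, with the E-box letters in capitals and the 5′ end of the transcribed strand first. The Epcam window lies at chr17:87635729-87636028 (plus strand), that of Krt8 at chr15:102004293-102004592 (minus strand), that of Krt18 at chr15:102027966-102028265 (plus strand) and that of Cldn4 at chr5:134946885-134947184 (minus strand).
Epcam: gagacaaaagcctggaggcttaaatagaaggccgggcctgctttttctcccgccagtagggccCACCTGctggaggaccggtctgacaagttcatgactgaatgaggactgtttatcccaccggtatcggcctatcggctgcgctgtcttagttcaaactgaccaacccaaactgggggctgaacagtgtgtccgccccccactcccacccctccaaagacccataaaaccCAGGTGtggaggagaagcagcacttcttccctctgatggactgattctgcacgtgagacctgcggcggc
Krt8: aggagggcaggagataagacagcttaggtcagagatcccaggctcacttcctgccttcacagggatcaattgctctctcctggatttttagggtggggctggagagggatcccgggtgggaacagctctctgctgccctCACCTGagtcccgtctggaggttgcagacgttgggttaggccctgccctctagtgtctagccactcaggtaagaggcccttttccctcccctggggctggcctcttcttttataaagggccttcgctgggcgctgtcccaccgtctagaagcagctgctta
Krt18: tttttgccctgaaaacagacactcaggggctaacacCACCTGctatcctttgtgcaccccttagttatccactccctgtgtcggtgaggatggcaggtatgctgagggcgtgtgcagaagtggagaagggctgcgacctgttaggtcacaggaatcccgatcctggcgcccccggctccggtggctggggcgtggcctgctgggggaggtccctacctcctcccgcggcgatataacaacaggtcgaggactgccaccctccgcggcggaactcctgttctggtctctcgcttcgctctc
Cldn4: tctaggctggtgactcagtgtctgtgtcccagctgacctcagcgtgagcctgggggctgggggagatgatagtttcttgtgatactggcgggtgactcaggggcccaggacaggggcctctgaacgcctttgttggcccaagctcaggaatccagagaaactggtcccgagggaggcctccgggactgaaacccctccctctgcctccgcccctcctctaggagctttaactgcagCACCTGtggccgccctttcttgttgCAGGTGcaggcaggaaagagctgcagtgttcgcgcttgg
The E-box of Epcam appeared at 187 and again at 19 bases before the start, that of Krt8 at 111 bases before, that of Krt18 at 214 bases before, and those of Cldn4 at 14 bases before and 12 bases after. In the coordinates of the count table (GRCm38), Krt19 lies at chr11:100140810-100148665, Cdh1 at chr8:106603351-106670246, Muc1 at chr3:89229057-89233381 and Foxa2 at chr2:148042877-148046969. Krt8 and Krt18 are neighbors on chromosome 15, with 23.7 kb between them and transcription away from each other, and Krt7 lies 566.4 kb from Krt8. Cldn4 and Cldn3 are another divergent pair, 39.3 kb apart on chromosome 5.

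Before the markers were compared, the libraries were checked. Total counts ran from 13253575 to 18338667 per library. Normalized counts of Pbrm1 were 1354, 1385 and 1677 in WT against 397, 459 and 451 in Pbrm1 cKO, a log2 fold change of -1.76 (SE 0.13, adjusted p = 5.19e-40, DESeq2), so the labels held for the targeted gene. WT replicate 1 stood apart in the epithelial markers, as described next, and the log2 fold change of each of the 9 tested markers is given with and without it. Nothing in the labels says that the samples of a group came from separate cultures beyond their pools, so p-values measure the spread between these samples.

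In Pbrm1 cKO libraries Krt19, Cdh1 and Krt8 were higher than in WT, and 0 markers were called lower by DESeq2 (1 at an unadjusted p under 0.05, Krt18, and 0 in edgeR or limma voom). Of the 9 markers tested, 3 rose (33.3%), and 6 were not called, beside 15.9% of the 17474 genes tested called higher, 15.2% called lower and 31.1% called in either direction. The share of markers called in either direction was thus close to that over all genes. For 5 of the 9 the 2 groups were fully separated, with Pbrm1 cKO above in 4 and below in 1, beside 48.6% of all genes tested (24% above and 24.6% below). The median log2 fold change of the 9 was 0.52, against 0.00 for all genes tested, and it fell to 0.25 without WT replicate 1. Foxa2 was not tested, because it had at most 3 counts in every library.

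**Figure D1:**
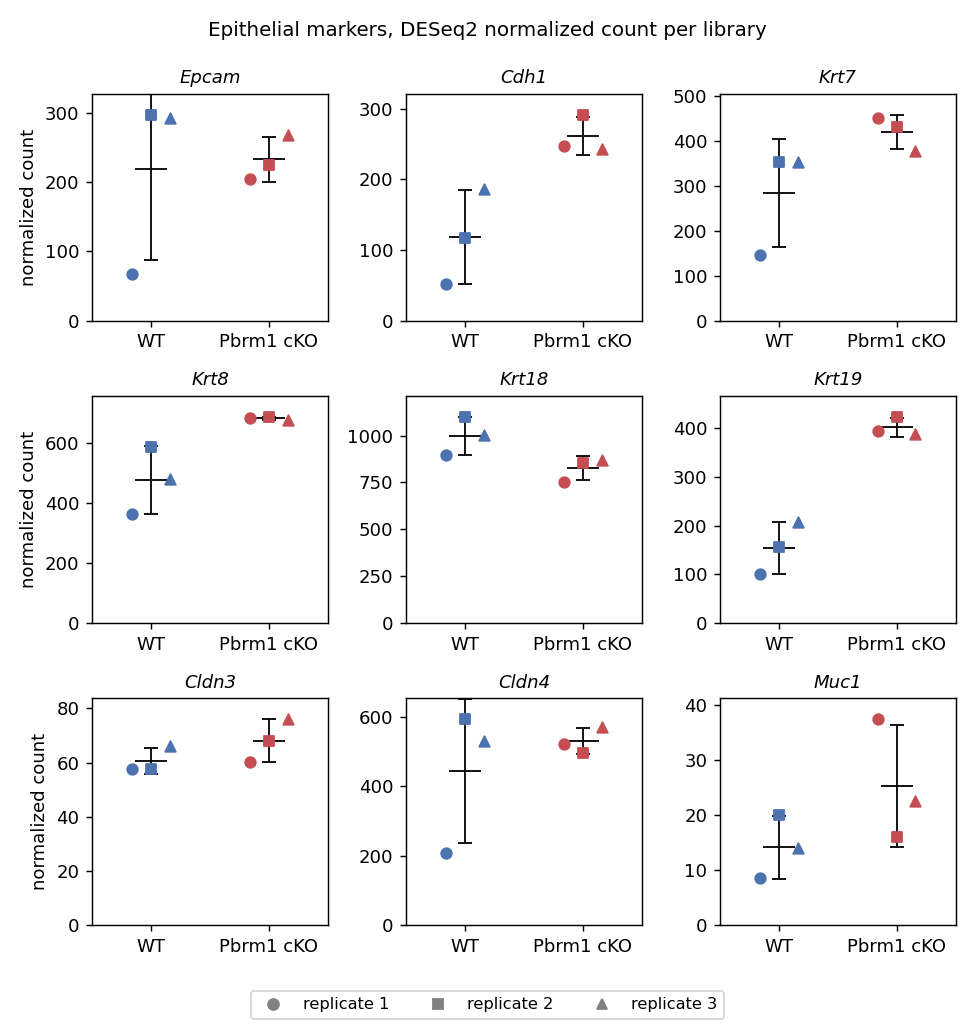
DESeq2 normalized counts (vertical axis, starting at 0) of the 9 tested markers in the 3 WT (blue) and 3 Pbrm1 cKO (red) libraries, with the symbol giving the replicate number and the black bars the mean ± SD. All Pbrm1 cKO points lie above all WT points for Cdh1, Krt7, Krt8 and Krt19 and below them for Krt18, and WT replicate 1 is the low WT point for Epcam, Cldn4 and Krt7.

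Krt19, the smallest type I keratin of simple epithelium, showed the largest change among the 9 tested markers. Its normalized counts were 100, 155 and 208 in WT, in the order of the replicate numbers, and 394, 423 and 388 in Pbrm1 cKO. Every Pbrm1 cKO library was above every WT library, and the mean was 2.6-fold higher (log2 fold change 1.38, SE 0.22, adjusted p = 1.21e-08, DESeq2). Without WT replicate 1 the log2 fold change was 1.15 (adjusted p = 2.93e-10, DESeq2). Krt19 was called in all 16 alternative analyses.

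Cdh1, the E-cadherin of adherens junctions, had normalized counts of 52.4, 118 and 186 in WT and 248, 292 and 243 in Pbrm1 cKO. The WT libraries spread widely, yet the groups did not overlap. The log2 fold change was 1.14 (SE 0.33, adjusted p = 0.00308, DESeq2), a 2.2-fold higher mean, and without WT replicate 1 it was 0.78 (adjusted p = 0.00147, DESeq2). It did not pass a test against a log2 fold change of 0.58 (adjusted p = 0.813, DESeq2).

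Krt8, the main type II keratin of the uterine lining, was nearly constant among the Pbrm1 cKO libraries, at 682, 687 and 677, and was 362, 588 and 479 in WT. The log2 fold change was 0.52 (SE 0.17, adjusted p = 0.00921, DESeq2), and without WT replicate 1 it was 0.35 (adjusted p = 0.0187, DESeq2). The call was lost without Pbrm1 cKO replicate 1 (adjusted p = 0.0555, DESeq2) or replicate 2 (0.0665) and held without replicate 3 (0.048). Krt7, the other type II keratin of the set, showed the same layout at a lower level, with 146, 354 and 353 in WT and 452, 431 and 378 in Pbrm1 cKO. All Pbrm1 cKO libraries were higher, but the log2 fold change of 0.56 (SE 0.27) did not pass (adjusted p = 0.0993, DESeq2), and it was 0.25 without WT replicate 1 (adjusted p = 0.179, DESeq2). With limma voom, which fitted the spread of each group separately, Krt7 passed (adjusted p = 0.0324).

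Krt18, the type I partner of Krt8 and the most abundant of the 10 markers per unit of gene length, had the opposite sign. Its normalized counts were 895, 1100 and 1001 in WT and 754, 853 and 871 in Pbrm1 cKO. All 3 Pbrm1 cKO libraries lay below the WT libraries, with a log2 fold change of -0.27 (SE 0.12, 95% interval from -0.51 to -0.04, adjusted p = 0.0725, DESeq2) that was not called. Without WT replicate 1 it passed, at -0.35 (adjusted p = 0.00886, DESeq2), and the markers then held 3 higher and 1 lower, beside 18.3% of genes called higher and 17.2% called lower in that comparison. Per kilobase of gene length, Krt8 transcript was 0.297, 0.393 and 0.351 of Krt18 transcript in WT and 0.664, 0.592 and 0.57 of it in Pbrm1 cKO. The mean ratio rose from 0.347 ± 0.0481 to 0.609 ± 0.0492 between WT and Pbrm1 cKO (SD, n = 3 each), with no overlap between groups (two-sided exact permutation p = 0.1, the smallest that 3 against 3 samples allow). This ratio was chosen after the values were seen. WT replicate 1 lay with the other WT libraries in it, unlike in the levels of Epcam or Cdh1.

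**Figure D2:**
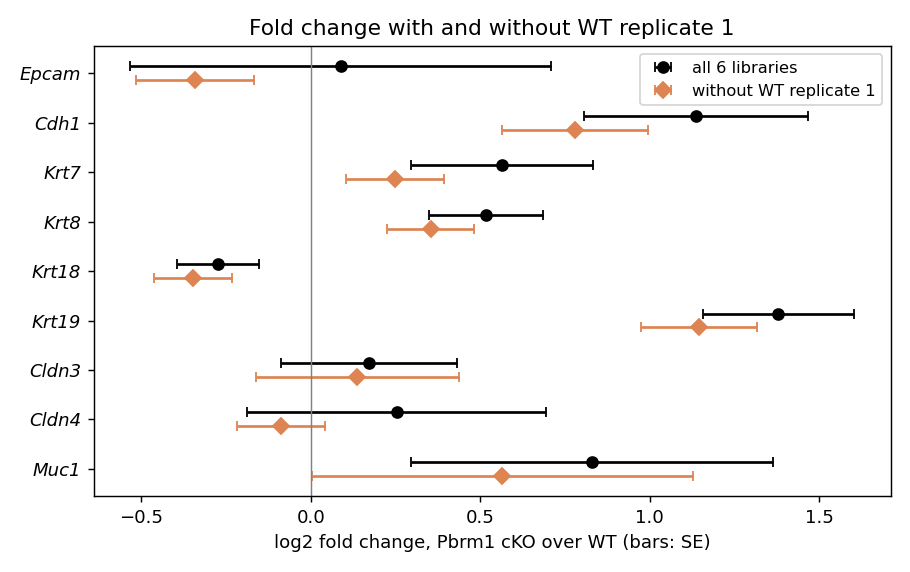
Log2 fold change of each tested marker, Pbrm1 cKO over WT (horizontal axis), with bars giving the SE, from all 6 libraries (black circles) and without WT replicate 1 (orange diamonds). Krt19, Cdh1 and Krt8 stay above 0 in both, Krt18 stays below 0, and Epcam and Cldn4 move across 0.

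Epcam, Cldn4, Cldn3 and Muc1 were not called. Epcam, the adhesion molecule of epithelial surfaces, had normalized counts of 67.3, 297 and 292 in WT and 204, 225 and 268 in Pbrm1 cKO. WT replicate 1 was far below all other libraries, and WT replicates 2 and 3 were above all Pbrm1 cKO libraries, so the groups overlapped through that library. The log2 fold change was 0.09 (SE 0.62, 95% interval from -1.13 to 1.31, adjusted p = 0.94, DESeq2) and changed sign to -0.34 without WT replicate 1 (adjusted p = 0.117, DESeq2), and it was -0.02 without Pbrm1 cKO replicate 3. Cldn4 followed Epcam, with 208, 593 and 531 in WT and 522, 496 and 570 in Pbrm1 cKO. Its log2 fold change was 0.25 (SE 0.44, 95% interval from -0.61 to 1.12, adjusted p = 0.736, DESeq2) and -0.09 without WT replicate 1 (adjusted p = 0.658, DESeq2).

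Cldn3, the other claudin, was level across the WT libraries at 57.7, 57.7 and 65.9 and reached 60.2, 67.9 and 76 in Pbrm1 cKO. The groups overlapped (log2 fold change 0.17, SE 0.26, 95% interval from -0.34 to 0.68, adjusted p = 0.692, DESeq2), and the log2 fold change was 0.14 without WT replicate 1 and 0.09 without Pbrm1 cKO replicate 3. Muc1 was low, with raw counts of 8, 18 and 13 in WT and 38, 20 and 24 in Pbrm1 cKO. Its log2 fold change of 0.83 (SE 0.53, 95% interval from -0.22 to 1.88) was not distinguishable from 0 at this depth (adjusted p = 0.253, DESeq2) and was 0.57 without WT replicate 1. Pbrm1 cKO replicate 1 held the highest value, and without it the log2 fold change was 0.44. Foxa2 was counted 1, 0 and 3 times in WT and 2, 1 and 3 times in Pbrm1 cKO, at or under the limit of 3 counts that a count of 0 allows (0.164 to 0.226 CPM, that is counts scaled to the library total, depending on the library), so no fold is given. The interval of each uncalled marker leaves room for changes of the size seen in Krt8, apart from Krt18, whose interval lies below 0.

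WT replicate 1 held less of most markers than the other WT libraries, but not of all. It was the lowest WT library in 8 of the 9 tested markers, beside 39.1% of all genes tested, and was under 0.5 of the mean of WT replicates 2 and 3 in 4 of the 9, beside 10.3%. Relative to that mean it held 0.229 for Epcam, 0.345 for Cdh1, 0.371 for Cldn4 and 0.414 for Krt7. Krt19 stood at 0.554, Krt8 at 0.679, Krt18 at 0.852 and Cldn3 at 0.934, so the keratins Krt8 and Krt18 and the claudin Cldn3 were nearer to the other WT libraries. Per kilobase, Krt18 transcript was 18.9 times that of Epcam in WT replicate 1 and between 4.61 and 5.37 times in the other 5 libraries. Muc1, at few counts, stood at 0.503.

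**Figure D3:**
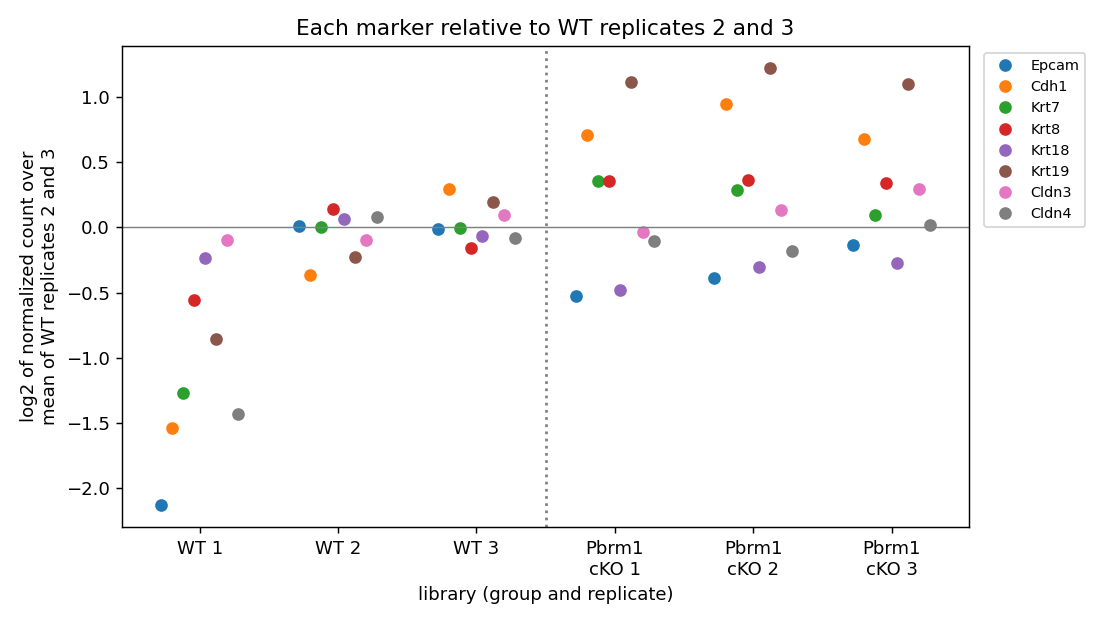
Log2 of each marker's normalized count over the mean of WT replicates 2 and 3 (vertical axis) in the 6 libraries (horizontal axis), with 1 color per marker, Muc1 and Foxa2 left out for low counts. In WT replicate 1 the points run from Cldn3 and Krt18 near 0 down to Epcam near the bottom, and in the 3 Pbrm1 cKO libraries Krt19 and Cdh1 lie highest and Krt18 and Epcam lowest.

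Against WT replicates 2 and 3 alone, the Pbrm1 cKO mean was 2.21 times as high for Krt19, 1.72 for Cdh1, 1.49 for Muc1 at few counts, 1.28 for Krt8 and 1.19 for Krt7. The values were 1.1 for Cldn3, 0.942 for Cldn4, 0.79 for Epcam and 0.786 for Krt18. The markers thus did not share 1 direction between the groups. Summed over the 10 markers the level was 128, 223 and 212 CPM in WT and 229, 238 and 242 CPM in Pbrm1 cKO. The sum in every Pbrm1 cKO library was above that of every WT library, by little over WT replicates 2 and 3 (1.09 times their mean).

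Within that sum the composition differed. Krt18 gave 47.1, 33.5 and 32% of the summed marker count in the WT libraries and 22.5, 24.4 and 24.9% in Pbrm1 cKO, whereas Krt19 gave 5.29, 4.73 and 6.63% in WT and 11.7, 12.1 and 11.1% in Pbrm1 cKO. The groups did not overlap in either share (two-sided exact permutation p = 0.1 for each, the smallest possible), and WT replicate 1 was within or beyond the WT side in both. Both shares were picked for the test after the values were seen, so the p-values add nothing to the lack of overlap. Cdh1 rose from 2.76, 3.58 and 5.94% to 7.38, 8.35 and 6.95%. These shares depend on each other, since they sum to the whole.

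Across markers, levels were compared per gene length. The length in the count table was 7049 bases for Krt7, against 1958 for Krt8, 1437 for Krt18 and 1855 for Krt19. The rank of Krt7 depends on that length, and the length of the transcripts expressed here was not measured. In WT, Krt18 had 47.1 ± 5.01 CPM per kilobase (SD, n = 3), followed by Cldn4 (16.6 ± 7.74), Krt8 (16.5 ± 3.97), Epcam (7.28 ± 4.37), Krt19 (5.64 ± 1.96), Cldn3 (3.25 ± 0.255), Krt7 (2.74 ± 1.16), Cdh1 (1.76 ± 0.99) and Muc1 (0.41 ± 0.167). Krt18 stood clear of the rest by more than the spread, whereas Cldn4 and Krt8, Epcam and Krt19, and Cldn3, Krt7 and Cdh1 did not differ from their neighbors by more than their SDs. In Pbrm1 cKO the order was Krt18 (39.4 ± 3.2), Krt8 (23.9 ± 0.0935), Cldn4 (20 ± 1.56), Krt19 (14.9 ± 0.628), Epcam (7.83 ± 1.16), Krt7 (4.09 ± 0.341), Cdh1 (3.91 ± 0.384), Cldn3 (3.71 ± 0.458) and Muc1 (0.74 ± 0.32). Krt19 there was separated from Epcam by more than the spread, and Krt7, Cdh1 and Cldn3 were not separated from each other. Foxa2 was last in both groups, at 0.041 and 0.054 CPM per kilobase. Against vimentin (Vim), the intermediate filament of stroma, Epcam reached 0.425, 2.1 and 2.14% per kilobase in WT and 1.63, 1.87 and 2.29% in Pbrm1 cKO.

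Keratins outside the marker set included the pair of stratified and basal epithelium, Krt5 (type II) and Krt14 (type I), which is not part of a simple epithelium. Krt5 was counted 0 times in all 3 WT libraries and 52, 45 and 44 times in those of Pbrm1 cKO, where it was at least 13.1-fold higher against a floor of 3 counts per library (adjusted p = 1.03e-08, DESeq2). Krt14 had normalized counts of 4.3, 11.1 and 10.8 in WT and 115, 95.1 and 106 in Pbrm1 cKO (log2 fold change 3.6, SE 0.39, adjusted p = 4.27e-18, DESeq2). In WT, Krt5 was thus not detected and Krt14 was low but above the floor, at raw counts of 4, 10 and 10. Both partners were clearly present in each Pbrm1 cKO library. Of the 10 other keratins tested, 4 rose and 0 were called lower by DESeq2 (1 at an unadjusted p under 0.05, and 0 in edgeR or limma voom). The 40% called stood beside 31.1% of all genes tested (15.9% higher and 15.2% lower). The other called keratins were Krt6a (log2 fold change 1.78, SE 0.39, adjusted p = 3.61e-05, DESeq2) and Krt15, whose call was lost or not tested with any 1 library left out. Without WT replicate 1 the log2 fold change was 3.27 for Krt14 and 1.46 for Krt6a, both still called. Krt6a and Krt15, like Krt20 and Krt80 in the plot of the other keratins, were chosen after their values were seen. Krt17, the most abundant of the list, was not called, with 42.8, 77.7 and 91.9 in WT and 110, 105 and 104 in Pbrm1 cKO (adjusted p = 0.106, DESeq2), but passed without WT replicate 3 (adjusted p = 0.0312, DESeq2). Krt20 was not called (adjusted p = 0.0516, DESeq2) and was called lower without WT replicate 1 (adjusted p = 0.0038, DESeq2).

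**Figure D4:**
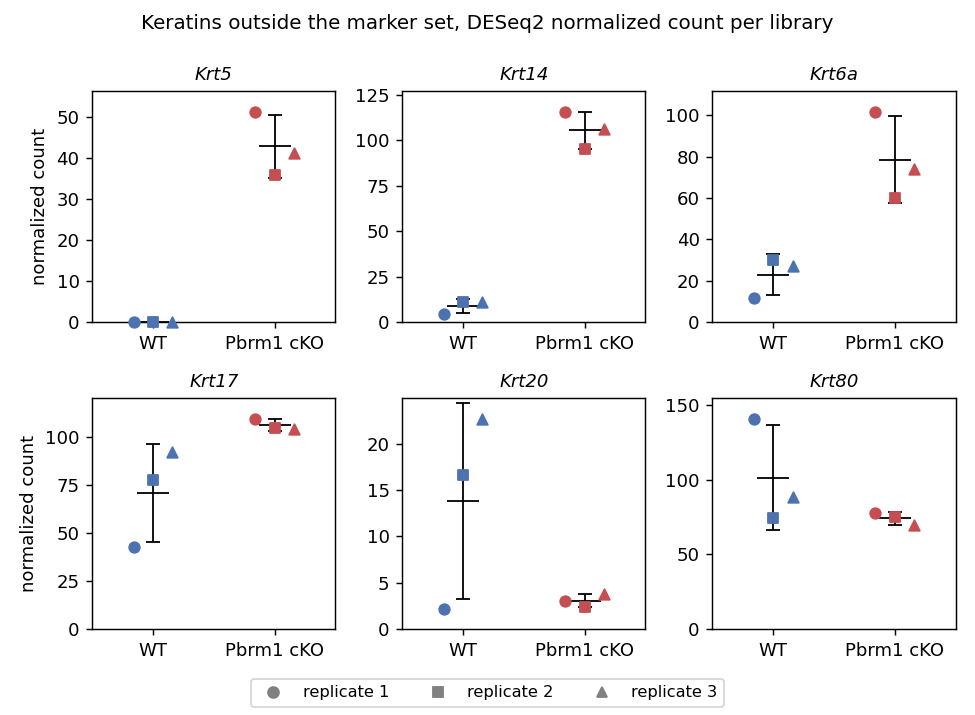
DESeq2 normalized counts (vertical axis, starting at 0) of 6 keratins outside the marker set in WT (blue) and Pbrm1 cKO (red) libraries, with the symbol giving the replicate number and black bars the mean ± SD. Krt5 is at 0 in WT and between 36 and 51.3 in Pbrm1 cKO, and Krt14, Krt6a and Krt17 lie higher in every Pbrm1 cKO library.

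Other junction and polarity genes were examined to see whether the pattern of Cdh1 extended to them. Of 16 tested, 5 rose and 0 fell in DESeq2 (0 at an unadjusted p under 0.05, and 0 in edgeR or limma voom), with a median log2 fold change of 0.74. The 31.25% called was close to the 31.1% over all genes tested (15.9% higher and 15.2% lower). WT replicate 1 was the lowest WT library in 14 of the 16, beside 39.1% of all genes tested. Dsp, the desmoplakin that anchors keratins at desmosomes, had 16, 51.1 and 50.8 in WT and 117, 114 and 114 in Pbrm1 cKO (log2 fold change 1.56, SE 0.35, adjusted p = 7.67e-05, DESeq2), and was still called with any 1 library left out. Jup, the plakoglobin shared by desmosomes and adherens junctions, was level at 205, 178 and 192 in WT and 175, 183 and 190 in Pbrm1 cKO (adjusted p = 0.8, DESeq2). The count of 5 became 2, 3 and 6 when WT replicates 1, 2 and 3 were left out in turn, and 2, 1 and 2 when the Pbrm1 cKO replicates were. Without WT replicate 1 the median was 0.47 and the log2 fold change of Dsp 1.18.

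Among epithelial transcription factors, splicing factors and protease inhibitors, 1 of 14 tested rose and 0 fell in DESeq2 (1 lower at an unadjusted p under 0.05), 0 of either direction passed edgeR, and limma voom called 2 higher and 1 lower. DESeq2 called 15.9% of all genes tested higher and 15.2% lower. The riser was Spint2, an inhibitor of membrane serine proteases, with 9.6, 35.5 and 68.1 in WT and 72, 99.9 and 84.4 in Pbrm1 cKO (log2 fold change 1.18, adjusted p = 0.0464, DESeq2). Its call was lost without WT replicate 1 (log2 fold change 0.72, adjusted p = 0.0816), WT replicate 2 (0.148) or Pbrm1 cKO replicates 1, 2 and 3 (0.106, 0.231 and 0.142). The count of 1 higher became 0 in each of these fits except the one without WT replicate 2, where 2 other genes, the splicing factor Esrp1 (adjusted p = 0.00487, DESeq2, against 0.0643 with all libraries) and the protease inhibitor Spint1 (0.0351 against 0.521), were called. Both were chosen after their values were seen. Klf5, the most abundant of the list, was not called, at 296, 250 and 373 in WT and 259, 212 and 217 in Pbrm1 cKO (adjusted p = 0.071, DESeq2), and passed as lower without WT replicate 2 (adjusted p = 0.0225, DESeq2).

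Zeb1, Zeb2 and Snai1 recognize the E-box sequence, but their binding at these promoters was not measured here. Their transcripts were counted in bulk and are not assigned to a cell type. Of 6 repressors of epithelial genes tested, which also included Snai2, Twist1 and Twist2, Zeb2 and Snai1 rose and Zeb1 fell. These are 33.3% higher and 16.7% lower, beside 15.9% and 15.2% of all genes tested. Zeb2 had 2897, 2783 and 2525 in WT and 3558, 3461 and 3227 in Pbrm1 cKO (log2 fold change 0.32, SE 0.1, adjusted p = 0.00393, DESeq2). Snai1 had 469, 378 and 576 in WT and 750, 673 and 632 in Pbrm1 cKO (log2 fold change 0.53, SE 0.16, adjusted p = 0.00573, DESeq2). No promoter window was read for Krt19 or Cdh1, and the part of the repressors in the marker results was not tested. Zeb1 had 716, 596 and 668 in WT and 454, 508 and 537 in Pbrm1 cKO (log2 fold change -0.4, SE 0.13, adjusted p = 0.00803, DESeq2). These changes were small, and leaving out a library ended some calls. Without Pbrm1 cKO replicate 1 the adjusted p was 0.0564 for Zeb2, 0.0758 for Snai1 and 0.0962 for Zeb1. Without Pbrm1 cKO replicate 2 it was 0.0537 for Zeb2 and 0.0539 for Zeb1, and without WT replicate 2 it was 0.0517 for Snai1 (DESeq2). WT replicate 1 was not low in this list, at a median of 1.07 times the mean of WT replicates 2 and 3.

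Genes that mark the lumen or the glands moved in both directions. Of 8 luminal genes tested, 3 rose (37.5%) and 1 fell (12.5%), beside 15.9% of all genes tested called higher and 15.2% called lower. Ltf, the estrogen-responsive lactotransferrin, had 25.7, 69.9 and 36.8 in WT and 311, 326 and 305 in Pbrm1 cKO (log2 fold change 2.84, SE 0.27, adjusted p = 5.07e-23, DESeq2). Wnt7a, a Wnt ligand of luminal epithelium, had 6.4, 7.8 and 13 in WT and 53.3, 55.1 and 51.6 in Pbrm1 cKO (log2 fold change 2.56, SE 0.44, adjusted p = 7.07e-08, DESeq2). Both changed more than any of the 9 tested markers, and without WT replicate 1 the log2 fold change was 2.56 for Ltf and 2.36 for Wnt7a. Areg, the progesterone-responsive amphiregulin, was the luminal gene that fell, with 12.8, 99.9 and 76.7 in WT and 13.8, 19.2 and 28.1 in Pbrm1 cKO. It was chosen after its values were seen, and WT replicate 1 lay below the Pbrm1 cKO libraries. Its log2 fold change was -1.63 (adjusted p = 0.0204, DESeq2), which did not pass in edgeR (adjusted p = 0.0559), without WT replicate 2 (0.245), without WT replicate 3 (0.106) or without Pbrm1 cKO replicates 1 and 2 (0.129 and 0.0963), and without WT replicate 1 it was 5.42e-07. The count of 1 luminal gene lower thus became 0 in edgeR, in limma voom (adjusted p = 0.129 for Areg) and in those fits, and 2 without WT replicate 1, where Ihh, a hedgehog ligand also chosen after its values were seen, joined Areg (log2 fold change -2.99, adjusted p = 0.00387, DESeq2, against 0.0596 with all libraries).

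Of 9 glandular genes tested, 3 rose (33.3%) and 2 fell (22.2%), with a median log2 fold change of -0.08. Over all genes tested, 15.9% were called higher and 15.2% lower. Lif, the cytokine that glands secrete at implantation, had 149, 326 and 332 in WT and 1528, 1445 and 1269 in Pbrm1 cKO (log2 fold change 2.4, SE 0.23, adjusted p = 1.78e-22, DESeq2). Aldh1a1, an enzyme of retinoic acid synthesis found in glands, had 48.1, 64.4 and 78.9 in WT and 17.8, 5.6 and 15 in Pbrm1 cKO (log2 fold change -2.34, SE 0.44, adjusted p = 1.07e-06, DESeq2). Neither gene overlapped between the groups, and both were still called with any 1 library left out. Lif and Aldh1a1 can be expressed outside the epithelium, and these bulk libraries do not assign their transcripts to a cell type. Without WT replicate 1 the log2 fold change was 2.1 for Lif and -2.51 for Aldh1a1, and the median of the list was -0.41. The count of 3 risers fell to 1 without WT replicate 3 or without Pbrm1 cKO replicates 1 or 2, and to 2 without WT replicate 1 or Pbrm1 cKO replicate 3, and the count of 2 fallers was 3 without WT replicate 1, WT replicate 2 or any Pbrm1 cKO replicate.

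Markers of other cell types were measured in the same libraries, and their counts are to be read beside the 15.9% of all genes tested called higher and the 15.2% called lower. Leukocyte markers moved with the groups, with 14 of 15 tested higher in Pbrm1 cKO and a summed level of 298 to 685 CPM in WT and 2957 to 3111 CPM in Pbrm1 cKO. WT replicate 1 held 0.443 of the mean of the other WT libraries in that sum, and 0.589 in the sum of the 10 epithelial markers. Lyz2, the lysozyme of macrophages, had 1896, 4837 and 5112 in WT and 17551, 18360 and 20340 in Pbrm1 cKO (log2 fold change 2.25, adjusted p = 5.92e-08, DESeq2, and 1.91 without WT replicate 1). Of the defining leukocyte markers, the lymphocyte genes Cd3e (1 to 11 counts) and Nkg7 (0 to 2 counts) were near 0. Endothelial markers summed to 222, 469 and 468 CPM in WT and 207 to 241 CPM in Pbrm1 cKO, so WT replicate 1 lay at the Pbrm1 cKO level, and 3 of 12 were called lower and 1 higher. The 3 became 10 without WT replicate 1 and 1 when any of the other libraries was left out instead. Stromal markers summed to 7004 to 7978 CPM in WT and 5434 to 5748 CPM in Pbrm1 cKO, with 6 of 12 lower and 1 higher. The higher one was Pdgfra, a receptor of stromal fibroblasts that was chosen after its values were seen (log2 fold change 0.23, adjusted p = 0.0216, DESeq2), and its call was lost without WT replicate 2 (0.0722) or Pbrm1 cKO replicates 1 or 2 (0.158 and 0.0942). Smooth muscle markers summed to 4086 to 4392 CPM in WT and 3846 to 3985 CPM in Pbrm1 cKO, with 5 of 11 lower. Their part in the epithelial marker results was not tested.

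Mesothelial cells of the outer uterine surface also express simple keratins. Of the 8 mesothelial genes tested, 0 were called by DESeq2 (1 higher at an unadjusted p under 0.05), beside 31.1% of all genes tested, and edgeR and limma voom each called 1 higher. Their summed level was 35.6 to 40.5 CPM in WT and 42.7 to 44.9 CPM in Pbrm1 cKO, most of it from Wt1, which uterine stroma also expresses. Of the defining markers, Calb2 had no count in any library, and Msln was counted 6, 24 and 25 times in WT and 37, 40 and 31 times in Pbrm1 cKO. The part of mesothelial cells in the keratin results was not tested.

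**Figure D5:**
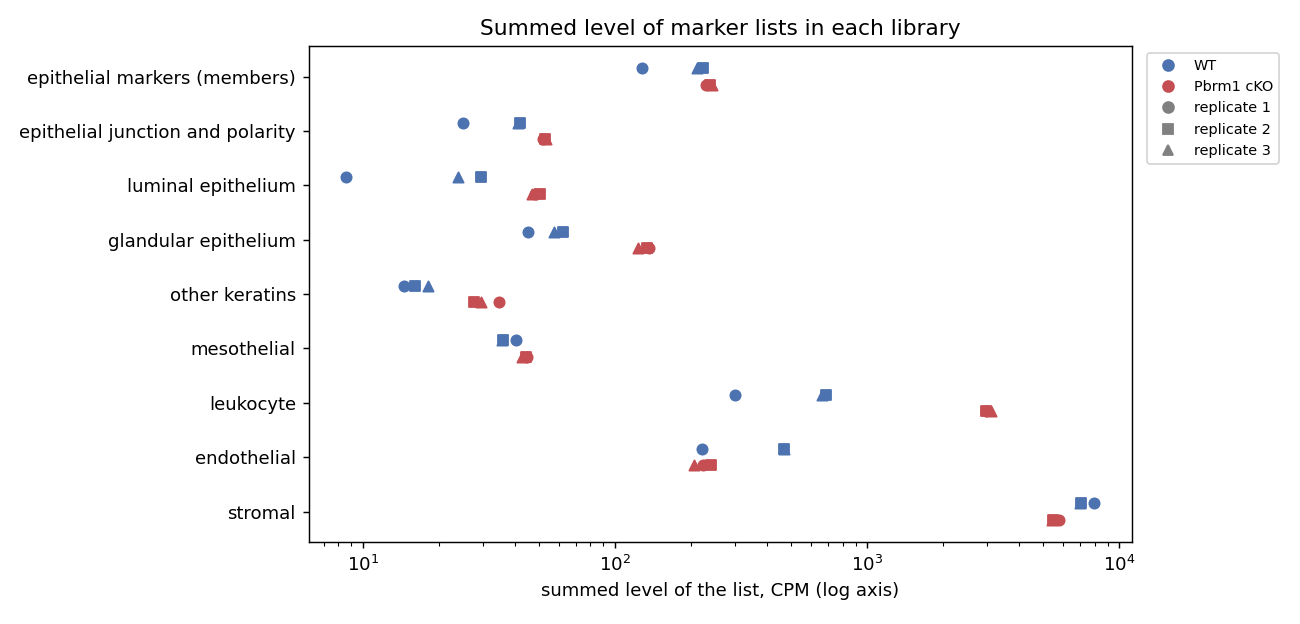
Summed level of each marker list in CPM (horizontal axis, log scale) in the 3 WT (blue) and 3 Pbrm1 cKO (red) libraries, with the symbol giving the replicate number. WT replicate 1 lies left of the other WT libraries for every list except the mesothelial and stromal ones (128 against 212 and 223 CPM for the epithelial markers). The Pbrm1 cKO libraries lie right of WT for every list except the endothelial and stromal ones, and farthest for the leukocyte list. For the stromal list they lie left of WT.

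The 5 genes whose profile across the 6 libraries was most like the mean profile of the 8 abundant markers, out of 9580 candidates, were Fcho2, AI987944, Ccl8, Selenop and Tcim. The root mean square difference of their centered log2 profiles from that mean ran from 0.0804 to 0.0925 over 6 libraries. They shared a low WT replicate 1, at 0.462 to 0.558 of the mean of WT replicates 2 and 3, and a slightly higher level in Pbrm1 cKO. None of the 5 is an epithelial marker of the lists used here.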

How the data were processed

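RNA-seq libraries of D4 primary uterine stromal cells (3 WT and 3 Pbrm1 cKO) were analysed from the deposited table. The authors removed adapters (cutadapt), aligned the single-end reads to mouse GRCm38 (HISAT2) and assigned them by strand to GENCODE 18 genes (featureCounts 1.6.4), so the deposited values are raw counts per gene, with replicates kept apart and no normalization. The labels name a total RNA kit with depletion of unwanted transcripts and the methods poly(A) selection, so which RNA classes were captured is not settled here. Antisense genes that overlap Krt7, Krt8 and Cldn3 held at most 2 counts per library.

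Gene symbols were matched for 54079 of 54232 identifiers (99.7%) through GENCODE release 21. Counts were tested with the Wald test of DESeq2 1.42.0 (R 4.3.3) under its default normalization and independent filtering and with no covariates, with Pbrm1 cKO over WT and adjusted p-values (Benjamini-Hochberg) under 0.05 over all genes tested. All adjusted p-values are from DESeq2 unless edgeR 4.0.16 or limma 3.58.1 is named. CPM values are counts scaled to the library total, and levels per kilobase divide them by the gene length in the table. The floor was 3 counts per library, and a group whose libraries all lay at or below it counts as not detected. Exact permutation tests used SciPy. The procedure was tested on simulated counts.

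The markers and all gene lists were chosen with earlier results of these data known. Besides the 10 markers, the rule for naming took Pbrm1, and from each list the gene with the highest mean and the 2 most changed called genes whose normalized counts averaged at least 20. It also took the 5 genes with a mean of at least 100 closest in profile to the markers. The results of 1 gene named by it are left out of the text. Genes outside it were chosen after their values were seen, among them the markers Msln, Calb2, Cd3e and Nkg7 of the other cell types. Alternatives were edgeR, limma voom, TMM size factors, size factors without marker genes, other filters and thresholds, a test against a log2 fold change of 0.58, a replicate block, thinning to the smallest library, and leaving out each library. Intervals and the floor cover counting error or the spread of these samples only, since reads carried no molecular identifiers.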

Additional observations from a re-analysis of the deposited data

How the results depend on the processing

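Of the 9 markers tested, Krt19, Cldn3 and Muc1 kept their direction and their side of the threshold in all 16 alternatives. Krt19 was called in each, with a log2 fold change of 1.15 to 1.65. Cdh1 kept its call in all but the test against 0.58, with 0.78 to 1.62, and Krt8 in 13 of 16, with 0.35 to 0.69. When each library was left out in turn, 2 to 3 markers were called higher and 0 to 1 lower, the 1 lower being Krt18 without WT replicate 1, and the median of the markers ran from 0.25 to 0.69. Testing against 0.58 on the log2 scale, with adjusted p under 0.1, called 1 marker higher (Krt19), and 699 genes higher and 563 lower over all genes. A plain threshold of 0.1 called 4 markers higher, Krt7 joining, and 1 lower (Krt18), and over all genes 3243 higher and 3140 lower. Epcam reversed to -0.34 without WT replicate 1 and to -0.02 without Pbrm1 cKO replicate 3, and Cldn4 to -0.0875 without WT replicate 1, in ranges of -0.34 to 0.37 and -0.0875 to 0.51 over the libraries left out. The cause was not tested.

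The replicate numbers did not pair the samples. The deviations of same-numbered samples from their group means correlated at 0.114, -0.0515 and 0.0028, and WT replicate 2 correlated best with Pbrm1 cKO replicate 3 (0.113) and WT replicate 3 with Pbrm1 cKO replicate 2 (0.0901). With the replicate block 4 markers were called higher, Krt7 joining (adjusted p = 0.046, DESeq2), and 0 lower, and over all genes 2175 were called higher and 1828 lower, against 2774 and 2658 without it. Muc1 and Foxa2 are limited by depth, at most 38 and 3 counts per library.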

Other observations

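WT replicate 1 was the lowest WT library in 6 of the 9 glandular genes tested, beside 39.1% of all genes tested, with a median of 0.602 of the mean of WT replicates 2 and 3. A few glandular genes went the opposite way. Prss29, an implantation serine protease of the glands, was counted 172, 3 and 5 times in WT replicates 1 to 3 and 0 times in each Pbrm1 cKO library, and its relative Prss28 was counted 60, 1 and 0 times in WT and never in Pbrm1 cKO. In the library with the least Epcam and Cdh1, these transcripts were thus the highest. Spink1, a secreted protease inhibitor, was counted 41, 17 and 13 times in WT and 0, 3 and 3 times in Pbrm1 cKO, and was lower there by at least 9.39-fold against a floor of 3 counts per library (adjusted p = 6.45e-05, DESeq2). That bound was at least 6.04-fold without WT replicate 1, and the gene was still called with any 1 library left out. Lcn2, the estrogen-responsive lipocalin, moved the other way, from normalized values of 28.9, 135 and 104 in WT to 201, 209 and 200 in Pbrm1 cKO (log2 fold change 1.19, adjusted p = 0.00805, DESeq2). The log2 fold change was 0.77 without WT replicate 1, and with the edgeR filter on low counts and no independent filtering the adjusted p was 0.106. Leaving out WT replicate 3 raised its adjusted p to 0.182, and leaving out Pbrm1 cKO replicate 1 or 2 raised it to 0.0521 or 0.296. These 4 genes were chosen after their values were seen.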
